A study of Arabidopsis thaliana with 30 samples.

Results

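Transcripts of the core cell division machinery were measured in sorted root cells of Arabidopsis thaliana, as 39 genes chosen by identity and not by their values among the 32833 genes of the count table. They were 9 B-type cyclins, 7 A-type cyclins, 8 D-type cyclins, the A-type kinase CDKA;1, 4 B-type kinases, the cytokinesis gene KNOLLE and 9 DNA replication genes (MCM2 to MCM7, PCNA1, PCNA2 and CDT1A). Wild type seedlings were kept for 6 days at 22 °C on diluted MS medium, with 16 h of light and 8 h of dark, in the D-Root device that shades the roots. Phosphate was either high (HPi) or low (LPi), where the treatment protocol names 5 µM for LPi but the labels of the samples name medium with none, and which of these holds is not known. A cell sorter separated the fluorescent cells of 5 lines, and each line stands for 1 cell type. They were WER::GFP for epidermis, J0571 for cortex, J0661 for pericycle, SHR::GFP for stele and J3411 for lateral root cap. GFP marks cells through the WER or SHR promoter in 2 of the lines, and the J lines are enhancer traps. There were 30 libraries, with 3 per cell type and phosphate level. Since a cell type came from a single line, cell type and line cannot be told apart.

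Plant cells pass from growth into DNA synthesis when D-type cyclins, joined to the A-type kinase, phosphorylate the retinoblastoma protein and free E2F transcription factors. E2F factors then switch on replication genes, among them the MCM subunits, which form the ring that unwinds DNA at the fork, and PCNA, the clamp that holds the polymerase. Later in the cycle A-type and B-type cyclins with B-type kinases carry the cell through mitosis, and their genes often carry a short element (the mitosis-specific activator, MSA) that is bound by MYB3R factors. In the root these genes are used as marks of dividing cells, which lie in the meristem, under the root cap and in the pericycle cells that begin a lateral root. D-type cyclins and the A-type kinase are less tied to division, since they are also used in cells that grow without dividing.

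Libraries held 427064 to 122076663 reads assigned to genes, with a median of 16836088.5. All 39 genes passed the filter on low counts that left 24866 genes, 12 were read in all 30 libraries, and 1 read was over 1 CPM (a gene's reads scaled to library total, with TMM factors) in 2 libraries, stele LPi replicate 1 and pericycle LPi replicate 3. Sorted cell types were checked by marker genes at HPi. Xylem markers were called higher in stele (6 of 6), root cap markers in the lateral root cap and in the epidermis (4 of 5 in each) and epidermis markers in the same pair of cell types (5 of 6 in each). Pericycle markers were called higher in the pericycle in 2 of 4 cases, but the summed level of the 4 was 357 to 682 CPM there, against 1007 to 1642 CPM in the epidermis and 751 to 1019 CPM in the stele. Endodermis markers were called higher in the cortex line (8 of 9), while 1 of 2 cortex markers tested was, and the other of the 3 did not pass the filter. Below, cortex names this sort by its label, and its levels may be those of endodermis. Of 5 markers of meristem and quiescent centre, 2 were called higher in the epidermis. The replicate 3 libraries of the epidermis at HPi and LPi hardly differed. The standard deviation (SD) of their log2 ratio over genes was 0.101, against 0.205 in the next closest pair of libraries. Summed endodermis markers were at 1717 CPM in stele HPi replicate 1 and 364 CPM in stele LPi replicate 1, against 6.09 to 81.8 CPM in the other stele libraries. Summed root cap markers were at 78.1 CPM in pericycle LPi replicate 3, against 0.0875 to 8.54 CPM in the other pericycle libraries. In such bulk samples fewer dividing cells and less RNA per cell cannot be told apart.

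The sequences just before the annotated starts are shown for genes whose levels follow below, since these bases hold the elements by which the genes are grouped. Coordinates and bases are from the TAIR10.1 reference genome, 5′ to 3′ on the strand of the gene. The first group carries an E2F site, searched on both strands as TTTCCCGC, TTTCGCGC, TTTGCCGC or TTTGGCGC and shown in capitals. The windows of 120 bases are chr1:16970094-16970213 (+) for MCM2, chr2:7130730-7130849 (-) for MCM4, chr2:3527501-3527620 (-) for MCM5 and chr5:18010668-18010787 (-) for MCM6.
MCM2: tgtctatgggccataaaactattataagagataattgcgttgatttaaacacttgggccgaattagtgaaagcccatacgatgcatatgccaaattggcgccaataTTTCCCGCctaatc
MCM4: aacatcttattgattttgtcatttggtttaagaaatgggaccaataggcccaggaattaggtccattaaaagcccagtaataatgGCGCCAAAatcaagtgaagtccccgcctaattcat
MCM5: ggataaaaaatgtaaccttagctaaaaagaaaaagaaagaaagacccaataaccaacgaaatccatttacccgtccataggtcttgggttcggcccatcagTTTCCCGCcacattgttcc
MCM6: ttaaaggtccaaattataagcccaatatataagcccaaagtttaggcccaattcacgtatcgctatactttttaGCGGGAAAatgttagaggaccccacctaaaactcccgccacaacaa

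The second group carries the MSA core AACGG, searched on both strands (CCGTT on the other) and shown in capitals. These windows of 180 bases belong to B cyclins and lie at chr4:17624309-17624488 (-), chr5:1861704-1861883 (-), chr2:7663875-7664054 (+), chr4:16901416-16901595 (+) and chr1:7137829-7138008 (-), in the order printed. Each of the 9 printed windows overlaps no other annotated gene.
CYCB1;1: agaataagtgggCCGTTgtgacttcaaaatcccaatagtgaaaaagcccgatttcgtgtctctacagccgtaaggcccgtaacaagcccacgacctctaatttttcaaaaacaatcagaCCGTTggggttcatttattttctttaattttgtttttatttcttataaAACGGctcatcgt
CYCB1;2: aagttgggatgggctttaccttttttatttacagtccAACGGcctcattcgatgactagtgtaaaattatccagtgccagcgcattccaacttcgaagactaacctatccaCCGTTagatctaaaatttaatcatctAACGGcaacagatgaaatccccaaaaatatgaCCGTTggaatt
CYCB2;1: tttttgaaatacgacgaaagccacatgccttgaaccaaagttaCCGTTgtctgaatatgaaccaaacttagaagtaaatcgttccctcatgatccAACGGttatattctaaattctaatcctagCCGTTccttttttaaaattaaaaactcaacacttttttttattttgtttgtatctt
CYCB2;2: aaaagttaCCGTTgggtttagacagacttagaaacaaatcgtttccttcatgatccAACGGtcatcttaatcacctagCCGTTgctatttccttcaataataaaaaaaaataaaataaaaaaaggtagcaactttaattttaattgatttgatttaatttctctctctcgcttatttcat
CYCB2;3: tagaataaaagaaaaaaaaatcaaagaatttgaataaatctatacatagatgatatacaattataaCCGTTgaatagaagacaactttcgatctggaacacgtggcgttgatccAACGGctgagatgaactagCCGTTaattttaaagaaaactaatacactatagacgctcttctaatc

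Over windows of 250 bases before to 50 bases after the start, an E2F site was present in 6 of the 39 genes, against 1.76% of 27443 protein-coding genes. Those of replication genes were in MCM2 at -14, MCM3 at -170, MCM4 at -35, MCM5 at -19 and MCM6 at -46, counted from the start. An MSA core was present in 17 of the 39, against 24.7% of protein-coding genes, and these held 8 of 9 B cyclins, 3 of 7 A cyclins and KNOLLE. The others with an MSA core were 3 of 9 replication genes, 1 of 8 D cyclins and 1 of 4 B kinases. The site II element, TGGGCC or TGGGCT on either strand, was present in 14 of the 39 against 21.7% of protein-coding genes, and in 7 of 9 replication genes. In 1 gene, CYCB1;1, a site II match shared bases with an MSA core match, and no E2F site overlapped another motif. A match is a description of the letters, with binding not measured here.

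**Figure D1:**
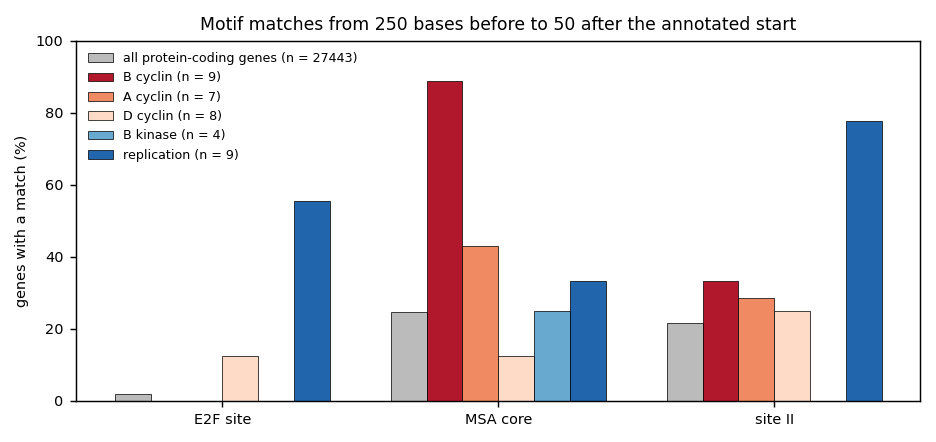
Share of upstream windows, in percent, that hold an E2F site, an MSA core or a site II element, as bars for 5 roles among the 39 genes and for all protein-coding genes (gray). E2F sites are in 5 of 9 replication genes and MSA cores in 8 of 9 B cyclins, while all protein-coding genes stand at 1.76% and 24.7%.

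Levels between genes were compared as CPM per kilobase of exon, averaged over the 30 libraries. The D cyclin CYCD2;1 (AT2G22490) was highest at 20.3 CPM per kb, followed by CDKA;1 (AT3G48750) at 17.1, CYCD3;2 (AT5G67260) at 8.81 and CYCD3;3 (AT3G50070) at 6.46 CPM per kb. The highest B cyclin was CYCB2;3 (AT1G20610) at 4.96 CPM per kb, and MCM7 led the replication genes at 3.94 CPM per kb. Without its highest library, pericycle LPi replicate 3, CYCB2;3 was at 2.92 CPM per kb, below MCM7. The mitotic cyclin CYCA1;1 (AT1G44110) was lowest at 0.423 CPM per kb, and 11 of the 39 genes were under 1 CPM per kb. Reads over all libraries ranged from 34136 for the highest D cyclin down to 431 for the B cyclin CYCB1;4 (AT2G26760).

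Summed CPM by role separated replication genes and B cyclins by cell type. Replication genes summed to 83.3, 137 and 154 CPM at HPi and 79.7, 78.3 and 139.9 CPM at LPi in the stele. These 6 libraries all lay above the 24 others, which ranged from 7.79 to 70.1 CPM. The pericycle and the epidermis came next, with medians over 6 libraries of 55.8 and 55.4 CPM. The pericycle was at 70.1, 51.7 and 56.5 CPM at HPi and 55.1, 57 and 39.1 CPM at LPi. The epidermis ranged more widely, from 20.02 to 69.1 CPM. The lateral root cap was low with 18.5, 36 and 18.9 CPM at HPi and 30.4, 18.8 and 23.2 CPM at LPi. B cyclins ran the other way as a sum. They summed to 35.9, 33.5 and 34.5 CPM at HPi and 28.7, 32.6 and 32.1 CPM at LPi in the lateral root cap, and to 3.36, 6.5 and 7.61 CPM at HPi and 9.96, 5.58 and 11.2 CPM at LPi in the stele, so that the 6 libraries of one lay above the 6 of the other. By gene, CYCB1;1 did not follow this order, with medians of 0.304 CPM in the lateral root cap and 0.745 CPM in the stele. The other 8 B cyclins had higher medians in the lateral root cap than in the stele. In the epidermis B cyclins summed to 15.4, 39.1 and 16.3 CPM at HPi and 37.5, 40.4 and 15.2 CPM at LPi. The value of 136 CPM in pericycle LPi replicate 3, against 6.82 and 16.0 CPM in the other pericycle LPi libraries, came from 1 gene, and the other 8 B cyclins summed to 6.51 CPM there.

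**Figure D2:**
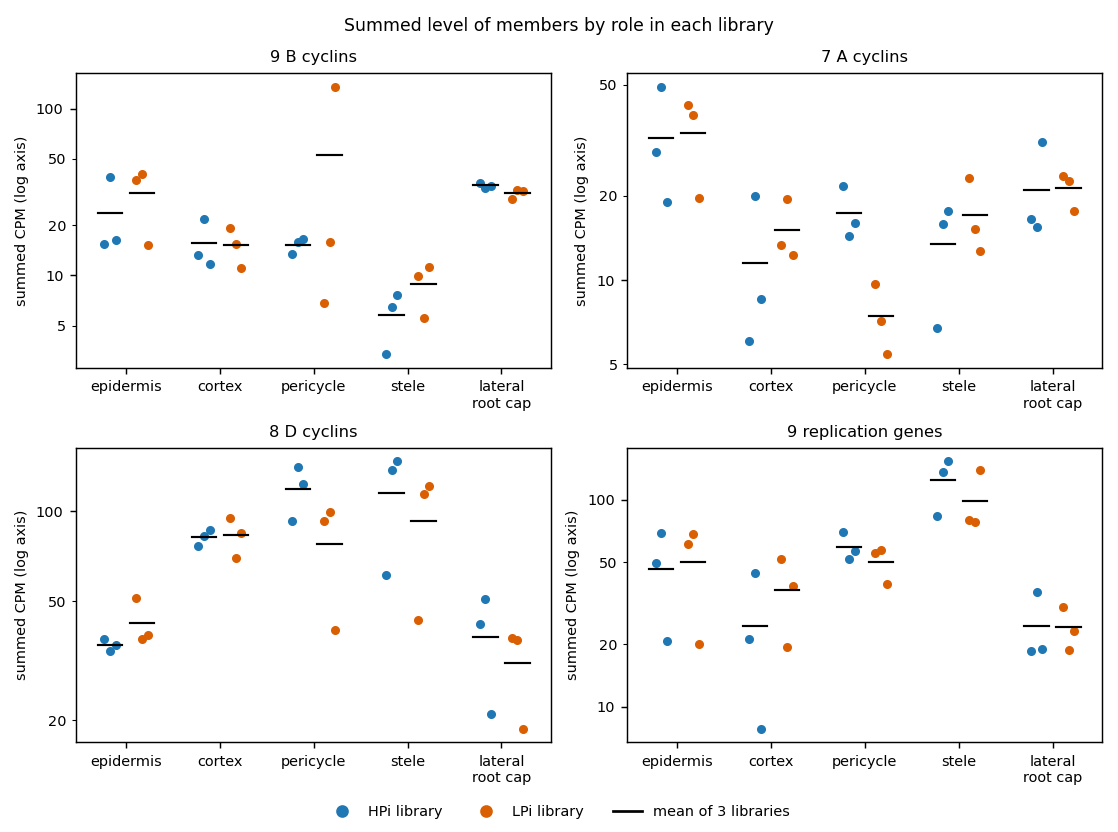
Summed CPM (log axis) of B, A and D cyclins and of replication genes in the 30 libraries, by cell type, with HPi libraries in blue, LPi libraries in orange and lines at the mean of 3 libraries. For replication genes the 6 stele libraries lie at 78.3 to 154 CPM and the 24 others at 7.79 to 70.1 CPM, while for B cyclins the stele is low at 3.36 to 11.2 CPM.

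Over the 10 group means of log2 CPM, correlation between genes followed the same split. It is given as a description only, with no test, and libraries differed widely in depth. The median Pearson r between pairs of replication genes was 0.72, between B kinases and replication genes 0.71, and between B cyclins 0.48. Between B cyclins and replication genes it was -0.34, and between B cyclins and the A-type kinase -0.57. Pairs of a B cyclin and a replication gene ranged from -0.74 to 0.85. With the mean of the replication genes, r was 0.34 for CYCB1;1 and 0.21 for CYCB1;2, and -0.59 to -0.20 for the other B cyclins. Within the epidermis the libraries differed widely in all of these roles. Epidermis HPi replicate 2 was highest among the HPi libraries and both replicate 3 libraries were lowest for A cyclins, which summed to 28.6, 49.1 and 19 CPM at HPi and 42.1, 38.8 and 19.7 CPM at LPi. Replication genes did likewise, with 49.6, 69.1 and 20.7 CPM at HPi and 61.3, 68.6 and 20.02 CPM at LPi. Summed markers of meristem and quiescent centre were at 41.9, 65.7 and 16.9 CPM at HPi and 46.3, 44.0 and 14.7 CPM at LPi in the same libraries. The part of these markers in the gene levels was not tested.

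Levels were compared between cell types on the log2 scale, setting 1 cell type against the mean of 4 others at the same phosphate level, with edgeR's quasi-likelihood test and Benjamini-Hochberg adjustment over 24866 genes, and a gene was called at an adjusted p under 0.05. A group with few or no reads of a gene lowers the mean of the others, and log2 differences then depend on that group. Stele had the most genes called higher at HPi, namely 2 of 8 D cyclins, CDKA;1, 2 of 4 B kinases and 3 of 9 replication genes. At HPi, 8 of the 39 were called in stele (8 higher), where 17.7% of all genes were called, and 9 in the lateral root cap (4 higher, 5 lower), against 23.9%. In the epidermis 7 were called (5 higher, 2 lower), against 17.8%. In the pericycle 4 were called (4 higher), against 20.4%, and in the cortex 1 (lower), against 11.4%. The tool moved these counts, for all genes as well. In the cortex DESeq2 called 7 of the 39 and 4225 of all genes, where edgeR called 2831, and limma voom called 11 and 23.1% of all genes. In the stele voom called 20 of the 39 and 46.5% of all genes, and in the pericycle 13 and 48.4%. The median log2 difference of the 39 was -1.18 in the cortex, where 7 were positive and all genes had a median of 0.02. It was 0.24 in the epidermis, 0.22 in the pericycle, -0.03 in the stele and -0.15 in the lateral root cap, against -0.06, 0.18, -0.03 and 0.02 over all genes.

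At LPi the epidermis had most calls, with 10 of the 39 (7 higher, 3 lower) where 19.5% of all genes were called. The lateral root cap had 7 (3 higher, 4 lower), against 21.3%, the pericycle 6 (4 higher, 2 lower), against 21.8%, the stele 6 (3 higher, 3 lower), against 12.4%, and the cortex 1 (higher), against 10.3%. With voom they were 17 in the epidermis, where 36.7% of all genes were called, 18 in the stele, against 29.7%, and 12 in the lateral root cap, against 28.2%. DESeq2 called 10 in the pericycle, against 26.8%, and 4 in the cortex, against 15.8%. The median log2 difference of the 39 was 0.78 in the epidermis and 0.38 in the stele, against 0.28 and 0.02 over all genes. It was -0.17 in the cortex, 0.18 in the pericycle and -0.11 in the lateral root cap, against -0.03, -0.02 and 0.03. Of the 59 calls over both phosphate levels, 12 were kept in every alternative and 47 were lost in at least 1, while the direction was the same in all 59. Leaving out 1 library moved the counts. The count fell to 4 in the epidermis at HPi without replicate 2, to 2 in the stele at HPi without replicate 2, to 4 in the lateral root cap at HPi without replicate 3 and to 2 in the pericycle at HPi without replicate 2. In the cortex at HPi it was 0 without replicate 1 or 3 and 3 without replicate 2. At LPi it fell to 2 in the epidermis without replicate 2, to 1 in the pericycle and in the stele without replicate 2 of each, to 3 in the lateral root cap without replicate 3, and to 0 in the cortex without replicate 1, where it was 3 without replicate 3.

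**Figure D3:**
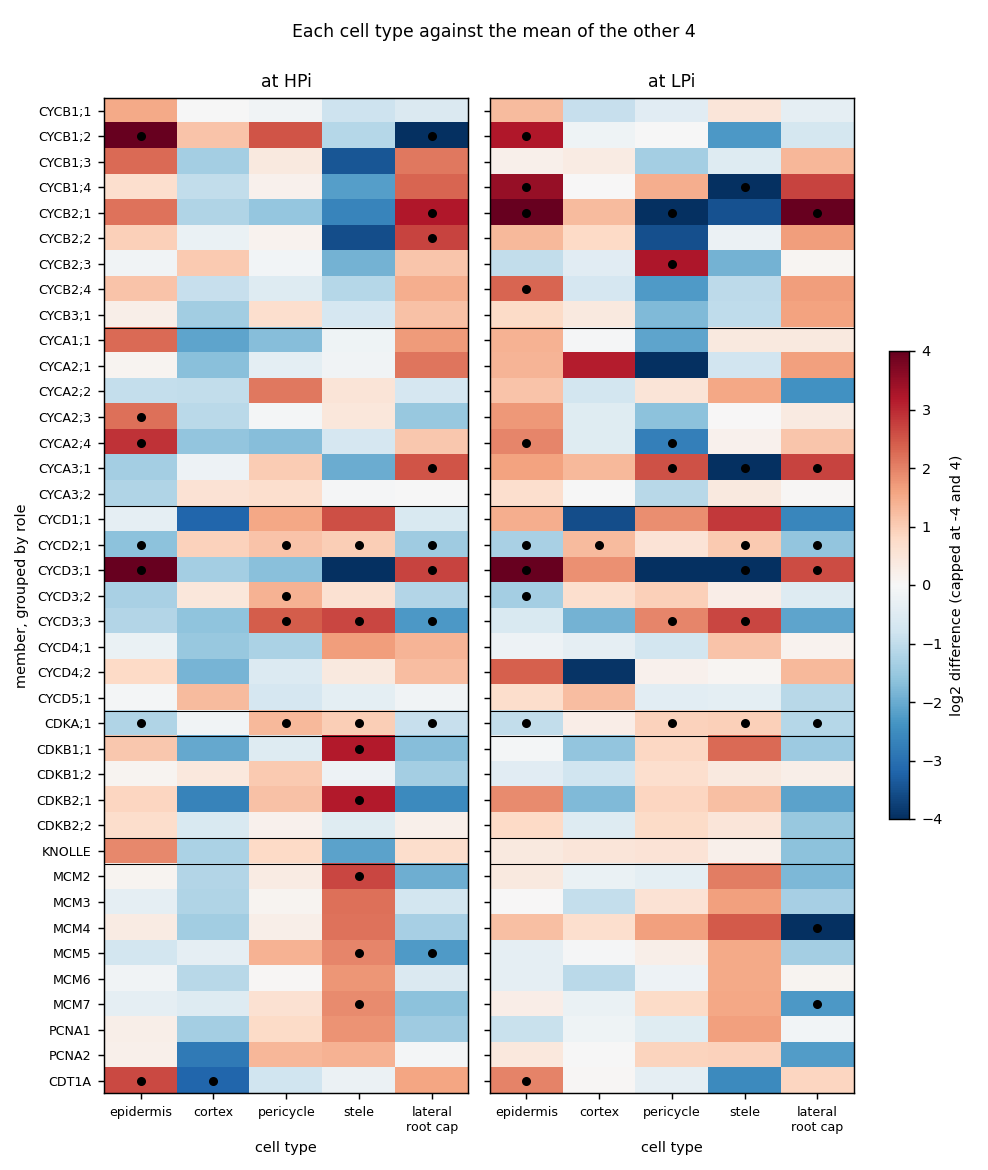
Log2 difference of each of the 39 genes when 1 cell type is set against the mean of 4 others, at HPi and at LPi, as a color scale capped at -4 and 4, with a dot on called genes. In the stele at HPi, 2 of 8 D cyclins, CDKA;1, 2 of 4 B kinases and 3 of 9 replication genes are called higher. B cyclins called higher are in the epidermis and lateral root cap, apart from 1 in the pericycle at LPi.

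LPi was compared with HPi within each cell type to ask whether low phosphate changed the division machinery. None of the 39 genes was called in any cell type with edgeR and TMM factors. With RLE size factors, or without pericycle LPi replicate 1 or 2, edgeR called 1 in the pericycle, CYCB2;3. In the epidermis 0 were called, with 1 at an unadjusted p under 0.05, where 0% of all genes were called. In the cortex 0 were called, with 2 at an unadjusted p under 0.05, against 0%. In the pericycle 0 were called, with 4 at an unadjusted p under 0.05, against 0.00402%. In the stele 0 were called, with 2, against 0%, and in the lateral root cap 0, with 2, against 0.0241%. The mean over the 5 cell types gave 0 calls, with 2 at an unadjusted p under 0.05, against 0.00402%, and the joint test of a response that differs between cell types gave 0, with 2, against 0%. These percentages are shares of all genes called at an adjusted p, and the unadjusted counts need another background. Of 24866 genes edgeR gave an unadjusted p under 0.05 for 243 in the epidermis, 1221 in the cortex and 3063 in the pericycle. It did so for 758 in the stele, 1679 in the lateral root cap, 1711 in the mean and 1334 in the joint test. DESeq2 called 1 gene in the pericycle and limma voom 0, and both called 0 in every other phosphate comparison. The common biological coefficient of variation was 0.749, and intervals were wide. For the A-type kinase, which was read in every library, the 95% interval of the log2 difference in the stele was -1.22 to 0.46.

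The median log2 difference of the 39 between LPi and HPi was 0.05 in the epidermis, 0.57 in the cortex, -0.31 in the pericycle, -0.21 in the stele and -0.15 in the lateral root cap. Over all genes it was 0.08, -0.06, -0.26, -0.04 and 0.01, and with RLE size factors the pericycle value of all genes moved from -0.26 to 0.02. The 3 LPi and 3 HPi libraries did not overlap for 1 of the 39 in the epidermis, against 6.70% of all genes, for 4 in the cortex, against 8.64%, for 4 in the stele, against 8.70%, and for 2 in the lateral root cap, against 7.80%. In the pericycle 12 of the 39 did not overlap (2 higher and 10 lower at LPi), against 14.0% of all genes, of which 423 were higher and 3054 lower at LPi. Of the LPi libraries compared there, replicate 3 stood far from all other pericycle libraries. The 10 that were lower were 3 B cyclins, 4 A cyclins, a D3 cyclin, the A-type kinase and PCNA1. Values for these genes follow by role.

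**Figure D4:**
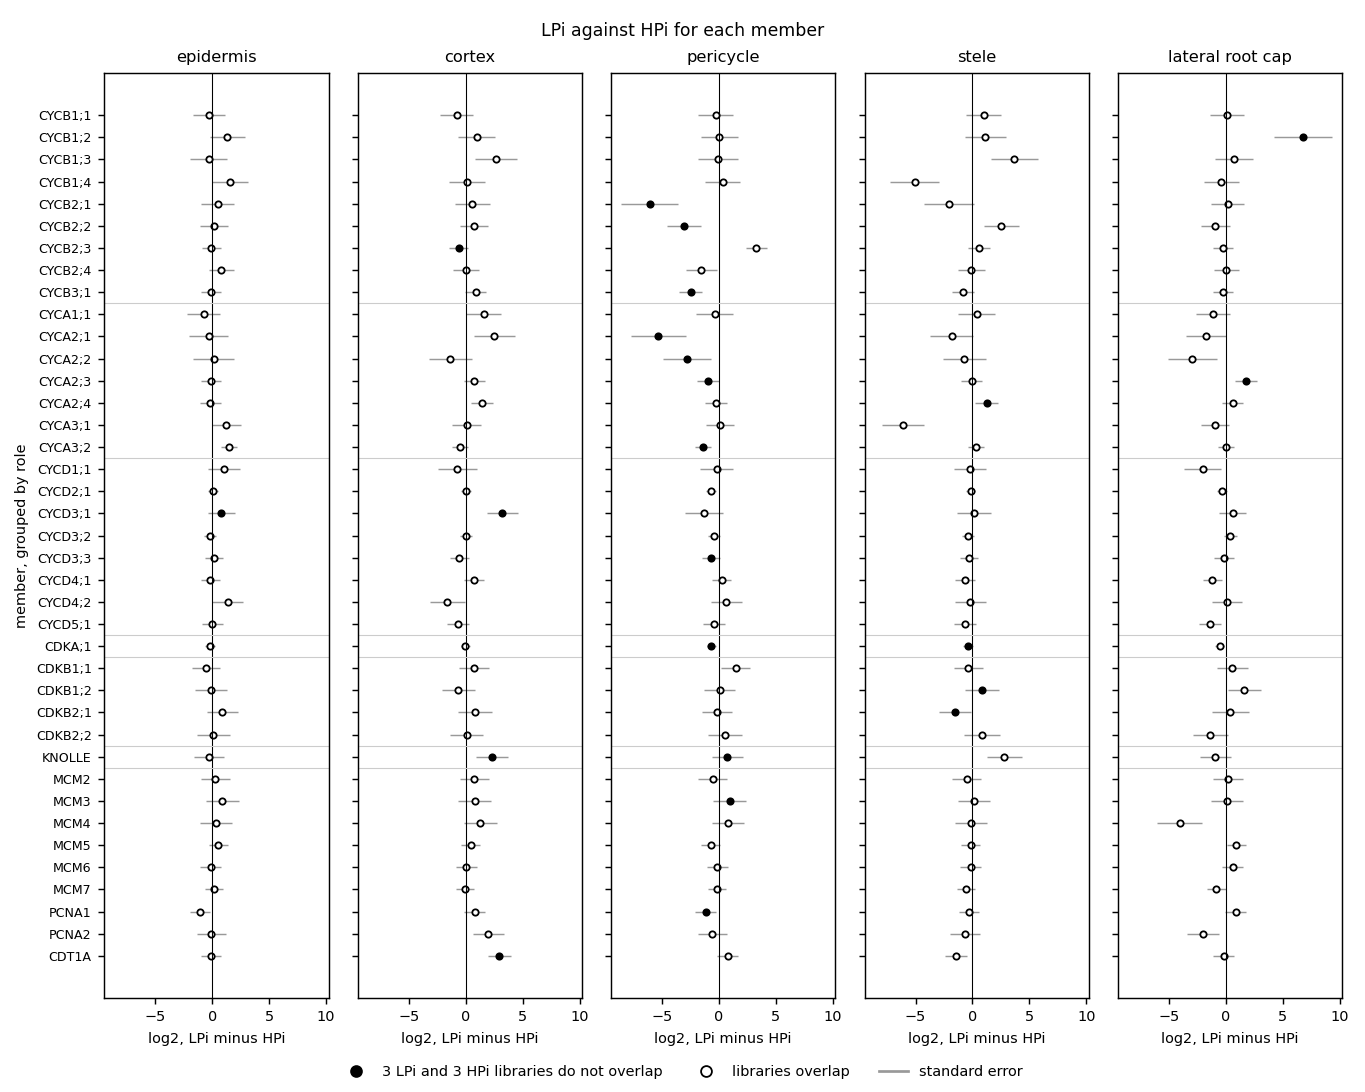
Log2 difference between LPi and HPi of the 39 genes in each cell type, by role, with lines for the standard error and filled points where the 3 LPi and 3 HPi libraries do not overlap. The median lies between -0.31 in the pericycle and 0.57 in the cortex, and no gene passed the adjusted threshold with edgeR and TMM factors.

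MCM2 to MCM7 form the replicative helicase, and 6 of 6 had their highest group mean in the stele. MCM2 (AT1G44900) was at 18.8, 28.7 and 31.8 CPM at HPi and 11.6, 13.1 and 30.8 CPM at LPi in the stele, against 0 to 15.7 CPM in the 24 other libraries. It was called higher there at HPi (log2 2.68, SE 0.88, adjusted p = 0.0347). Without stele HPi replicate 1 (log2 2.89, adjusted p = 0.0517), HPi replicate 2 (log2 2.63, adjusted p = 0.127) or HPi replicate 3 (log2 2.53, adjusted p = 0.136) the call was lost, as in 18 of 38 alternatives in all. MCM5 (AT2G07690) was at 3.36, 23.1 and 26.3 CPM at HPi and 18.3, 12.2 and 18.5 CPM at LPi in the stele. The HPi libraries held both the lowest and the highest of these. MCM5 was called higher in the stele at HPi (log2 1.96, SE 0.58, adjusted p = 0.0165). Once stele HPi replicate 2 (log2 1.76, adjusted p = 0.12) or HPi replicate 3 (log2 1.59, adjusted p = 0.162) was left out it was no longer called. MCM7 (AT4G02060) was even across the HPi libraries, at 26.2, 27.1 and 27 CPM at HPi and 9.96, 14.3 and 27.5 CPM at LPi in the stele, and was called higher there at HPi (log2 1.89, SE 0.56, adjusted p = 0.0176). This call did not hold without stele HPi replicate 2 (log2 1.89, adjusted p = 0.0746) or HPi replicate 3 (log2 1.89, adjusted p = 0.0706). Reads of MCM7 could also stem from a gene on the other strand that it overlaps by 437 bases.

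MCM6 (AT5G44635) separated the stele from all other libraries, at 14.8, 9.52 and 16.1 CPM at HPi and 9.96, 11.2 and 14.7 CPM at LPi, against 0 to 7.73 CPM in the 24 others. Its log2 difference in the stele was 1.76 at HPi (adjusted p = 0.0623), which did not pass. MCM3 (AT5G46280) was at 0.672, 18.8 and 17.4 CPM at HPi and 18.3, 7.98 and 16.3 CPM at LPi and MCM4 (AT2G16440) at 2.02, 11.5 and 14.8 CPM at HPi and 4.98, 9.58 and 10.7 CPM at LPi in the stele, with stele HPi replicate 1 low for both. Neither was called there at HPi, with log2 differences of 2.2 and 2.18. In that library the summed endodermis markers stood apart, and their part in these values was not tested.

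MCM4, MCM5 and MCM7 were each called lower in the lateral root cap at 1 phosphate level, whereas MCM6 was at 0.458 to 7.56 CPM there with a median of 4.58 CPM, against medians of 2.99 CPM in the cortex and 4.27 CPM in the epidermis. MCM5 was at 0.229, 0.623 and 4.01 CPM at HPi and 5.67, 1.94 and 2.09 CPM at LPi there and was called lower at HPi (log2 -2.26, SE 0.77, adjusted p = 0.0326). Leaving out lateral root cap HPi replicate 1 (log2 -1.71, adjusted p = 0.143) or HPi replicate 2 (log2 -1.72, adjusted p = 0.177) ended the call, as in 6 of 38 alternatives in all. MCM7 was at 8.7, 2.78 and 0.525 CPM at HPi and 2.79, 1.55 and 1.86 CPM at LPi and was called lower at LPi (log2 -2.31, SE 0.75, adjusted p = 0.0276). It did not pass without lateral root cap LPi replicate 1 (log2 -2.56, adjusted p = 0.0647), LPi replicate 2 (log2 -2.05, adjusted p = 0.111) or LPi replicate 3 (log2 -2.16, adjusted p = 0.111). MCM4 was at 0.229, 0.0567 and 3.63 CPM at HPi and 0, 0.388 and 0 CPM at LPi, which rested on 2 reads at LPi. Pooled over libraries it was 122 times as high in the other cell types at LPi (95% counting interval 33.7 to 1008.5), with an adjusted p of 0.0253, and the call was lost without lateral root cap LPi replicate 1 (adjusted p = 0.115) or replicate 3 (adjusted p = 0.109). Between phosphate levels it was 31.0 times as high at HPi (95% counting interval 8.31 to 261), and 1.55 times without lateral root cap HPi replicate 3, with an unadjusted p of 0.0486 and an adjusted p of 0.739.

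PCNA1 (AT1G07370) was at 8.07, 10.9 and 12 CPM at HPi and 3.32, 6.87 and 13.8 CPM at LPi in the stele, and PCNA2 (AT2G29570) at 8.74, 4.37 and 7.02 CPM at HPi and 3.32, 3.02 and 6.15 CPM at LPi. Neither clamp gene was called in any comparison. In the pericycle PCNA1 was at 4.11, 6.3 and 7.05 CPM at HPi and 1.5, 3.97 and 2.17 CPM at LPi, and these libraries did not overlap (log2 -1.16, SE 0.93, unadjusted p = 0.221, adjusted p = 0.662). MCM3 went the other way in the pericycle, at 4.86, 3.52 and 3.54 CPM at HPi and 5.79, 8.87 and 8.68 CPM at LPi, also without overlap (log2 0.95, SE 1.45, unadjusted p = 0.516, adjusted p = 0.861).

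CDT1A (AT2G31270), which loads the MCM ring at origins, was the 1 replication gene of 9 whose highest group mean was not in the stele but in the epidermis. It was at 5.92, 16.3 and 4.81 CPM at HPi and 11.3, 8.51 and 4.91 CPM at LPi in the epidermis and at 0.672, 2.85 and 1.54 CPM at HPi and 0, 0.0667 and 1.4 CPM at LPi in the stele. The test called it higher in the epidermis at HPi (log2 2.63, SE 0.64, adjusted p = 0.00315), where the call was lost without epidermis HPi replicate 2 (log2 2.04, adjusted p = 0.0734), and at LPi (log2 1.991, SE 0.65, adjusted p = 0.0307). Without epidermis LPi replicate 1 (log2 1.68, adjusted p = 0.149) or LPi replicate 2 (log2 2.09, adjusted p = 0.0679) the call was lost. In the cortex it was at 0.0175, 0.709 and 0.476 CPM at HPi and 2.14, 3.9 and 2.32 CPM at LPi, and was called lower at HPi (log2 -3.16, SE 0.94, adjusted p = 0.0248). Once cortex HPi replicate 1 (log2 -2.56, adjusted p = 0.14) or HPi replicate 3 (log2 -3.58, adjusted p = 0.0873) was left out it was no longer called. The LPi libraries of the cortex all lay above the HPi libraries for this gene (log2 2.94, SE 1.02, unadjusted p = 0.00751, adjusted p = 1). Across the 10 group means its r with the mean of the replication genes was -0.09, against 0.75 to 0.94 for the other 8. That mean is taken over all 9 genes, so each r is in part that of a gene with itself.

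B-type kinases are made in plants only and act around the start of mitosis. CDKB1;1 (AT3G54180) was at 14.8, 8.54 and 7.61 CPM at HPi and 4.98, 11.3 and 6.68 CPM at LPi in the stele, against 0 to 6.6 CPM in the 24 other libraries. Its level was called higher in the stele at HPi (log2 3.18, SE 0.87, adjusted p = 0.00964), and the call held in all 38 alternatives. CDKB2;1 (AT1G76540) was at 10.8, 5.15 and 4.89 CPM at HPi and 1.66, 2.98 and 2.22 CPM at LPi there. It was called higher in the stele at HPi (log2 3.18, SE 0.96, adjusted p = 0.0191). This call did not hold without stele HPi replicate 1 (log2 2.75, adjusted p = 0.0879) or HPi replicate 2 (log2 3.34, adjusted p = 0.055), as in 3 of 38 alternatives in all. In its case the 3 LPi libraries of the stele all lay below the 3 HPi libraries (log2 -1.51, SE 1.4, unadjusted p = 0.289, adjusted p = 1). CDKB1;2 (AT2G38620) ranged over 0.672 to 1.97 CPM in the stele with LPi above HPi in every library (log2 0.83, SE 1.48, unadjusted p = 0.581, adjusted p = 1), and CDKB2;2 (AT1G20930) over 0.578 to 3.32 CPM in the stele. Neither of the latter was called in any comparison. Summed, the 4 kinases were at 11.6 to 26.9 CPM in the stele and at up to 12.5 CPM elsewhere. Each of the 4 overlaps a neighbouring gene by 44 to 281 bases, and the strand setting of the counting is not given in the sources used here.

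B cyclins bind mitotic kinases and are broken down at anaphase. The B1 members had their highest group mean in the epidermis in 3 of 4 cases, and there CYCB1;2 (AT5G06150) was at 1.35, 3.52 and 1.19 CPM at HPi and 7.49, 7.2 and 0.589 CPM at LPi. The test called it higher there at HPi (log2 4.1, SE 1.18, adjusted p = 0.014), where the call was lost without epidermis HPi replicate 2 (log2 3.62, adjusted p = 0.0757), and at LPi (log2 3.21, SE 1.08, adjusted p = 0.0368). Leaving out epidermis LPi replicate 1 (log2 2.79, adjusted p = 0.146) or LPi replicate 2 (log2 3.03, adjusted p = 0.123) ended the call, as in 3 of 37 alternatives in all. The lateral root cap had no reads of it in any HPi library and was at 0.391, 0.777 and 0.581 CPM at LPi, from 17 reads. With reads pooled over libraries and a floor of 3 counts over the group, LPi was at 7.12-fold the floor of HPi (unadjusted p = 0.0129, adjusted p = 0.637), and at 6.41-fold without lateral root cap LPi replicate 2. At HPi the other 4 cell types were at 8.82-fold the floor of the lateral root cap (adjusted p = 0.0453), a call lost in 19 of 37 alternatives. Without epidermis HPi replicate 2 this fold was 7.44. The HPi difference of the epidermis depends in part on this empty group. Of its exon sequence 11.3% of 50-base words also occur elsewhere in the genome.

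CYCB1;4 was at 0.677, 1.72 and 0.258 CPM at HPi and 2.43, 4.48 and 0.883 CPM at LPi in the epidermis and was called higher there at LPi (log2 3.5, SE 1.08, adjusted p = 0.0224). It did not pass without epidermis LPi replicate 1 (log2 3.51, adjusted p = 0.0504) or LPi replicate 2 (log2 2.98, adjusted p = 0.106), as in 4 of 37 alternatives in all. It had no reads in the 3 LPi libraries of the stele, where HPi libraries were at 0, 0.217 and 0.181 CPM. The other 4 cell types were at 42.5-fold the floor of the stele at LPi (adjusted p = 0.0283), a call lost without stele LPi replicate 2 or 3 or without pericycle LPi replicate 2, at adjusted p values up to 1. Without epidermis LPi replicate 2 this fold was 36.2. The LPi difference of the epidermis depends in part on this empty group. The stele at HPi was at 6.84-fold the floor at LPi (unadjusted p = 0.0261, adjusted p = 1), and at 5.77-fold without stele HPi replicate 2. CYCB1;1 (AT4G37490), the cyclin most used as a reporter of cells in G2 and mitosis, ranged over 0.589 to 3.93 CPM in the epidermis and 0 to 2.72 CPM in the 24 other libraries, and was called nowhere. CYCB1;3 (AT3G11520) was not called either. In the stele it was at 0, 0 and 0.136 CPM at HPi, from 3 reads, and 0, 0.422 and 1.46 CPM at LPi, from 101 reads of which 82 were in replicate 3. The ratio of pooled CPM was 23.0 (95% counting interval 7.64 to 113), and 9.66 without that library, with an unadjusted p of 0.0872 and an adjusted p of 1.

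Among the B2 cyclins, which pair with B2 kinases, CYCB2;1 (AT2G17620) was higher in the epidermis and lateral root cap than elsewhere. It was at 2.75, 8.5 and 3.58 CPM at HPi and 8.32, 6.6 and 1.63 CPM at LPi in the lateral root cap and 1.01, 3.59 and 3.75 CPM at HPi and 5.26, 4.26 and 2.16 CPM at LPi in the epidermis. Its level was called higher in the lateral root cap at HPi (log2 3.2, SE 1.01, adjusted p = 0.0224). Without lateral root cap HPi replicate 2 (log2 2.64, adjusted p = 0.124) the call was lost. At LPi the call in the lateral root cap (log2 5.13, SE 1.19, adjusted p = 0.00301) and that in the epidermis (log2 4.5, SE 1.19, adjusted p = 0.00831) held in all 38 alternatives. In the pericycle it was at 0.919, 0.0767 and 0.0708 CPM at HPi and had no reads at LPi. The LPi differences of the lateral root cap and epidermis depend on this empty group and on the stele, with 2 reads at LPi. Pooled over libraries, the pericycle at HPi was at 5.14-fold the floor at LPi (unadjusted p = 0.0212, adjusted p = 0.293), which rested on HPi replicate 1, without which this fold was 1.402. The other cell types were at 33.6-fold the floor of the pericycle at LPi (adjusted p = 0.0319), a call lost without pericycle LPi replicate 1 (adjusted p = 0.152) or replicate 2 (adjusted p = 0.14). Without lateral root cap LPi replicate 1 that fold was 20.9.

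CYCB2;2 (AT4G35620) was at 8.93, 5.04 and 3.96 CPM at HPi and 0, 4.86 and 4.53 CPM at LPi in the lateral root cap, where the LPi libraries held both 0 and values near those at HPi. It was called higher there at HPi (log2 2.7, SE 0.88, adjusted p = 0.0268). Once lateral root cap HPi replicate 1 (log2 2.39, adjusted p = 0.0901) was left out it was no longer called, as in 2 of 37 alternatives in all. In the pericycle it was at 1.53, 1.73 and 1.06 CPM at HPi and 0.166, 0.203 and 0 CPM at LPi, without overlap (log2 -3.04, SE 1.5, unadjusted p = 0.0515, adjusted p = 0.41). CYCB2;4 (AT1G76310) was at 2.37, 4.77 and 3.16 CPM at HPi and 5.06, 9.82 and 3.24 CPM at LPi in the epidermis and was called higher there at LPi (log2 2.33, SE 0.82, adjusted p = 0.0431). This call did not hold without epidermis LPi replicate 1 (log2 2.42, adjusted p = 0.079) or LPi replicate 2 (log2 1.9, adjusted p = 0.221), as in 11 of 38 alternatives in all. CYCB3;1 (AT1G16330), the single B3 cyclin, was at 3.76, 4.93 and 3.97 CPM at HPi and 0.0333, 1.34 and 1.08 CPM at LPi in the pericycle, without overlap (log2 -2.5, SE 1.01, unadjusted p = 0.0194, adjusted p = 0.28), and was called in no comparison.

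CYCB2;3 had the widest range of any B cyclin. In the pericycle it was at 1.64, 5.32 and 7.54 CPM at HPi and 5.76, 8.83 and 129 CPM at LPi. The value in LPi replicate 3 was the highest of all 30 libraries, where the 24 libraries of other cell types were at 1.11 to 18.2 CPM. The test called it higher in the pericycle at LPi (log2 3.23, SE 0.6, adjusted p = 0.000161). Leaving out pericycle LPi replicate 3 (log2 0.57, adjusted p = 0.638) ended the call, as in 3 of 38 alternatives in all. For LPi against HPi in the pericycle (log2 3.26, SE 0.92, unadjusted p = 0.00135, adjusted p = 0.114) the adjusted p was 0.0365 with RLE size factors and 0.00143 with DESeq2, and 0.0110 and 0.0148 without pericycle LPi replicate 1 or 2. Without replicate 3 the log2 difference was 0.76 (adjusted p = 1), so the difference rested on 1 library. That library had among the fewest reads, and its root cap markers stood apart. In it this gene had 119 reads. In the cortex it was at 9.19, 8.94 and 9.39 CPM at HPi and 8.11, 5.37 and 4.34 CPM at LPi, without overlap (log2 -0.62, SE 0.85, unadjusted p = 0.466, adjusted p = 1). Of its exon sequence 17% of 50-base words occur elsewhere, and reads may be shared with those copies.

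A cyclins act from S phase to mitosis. The A2 cyclins, which pair with the B1 kinases, had 2 of 4 members called between cell types. CYCA2;4 (AT1G80370) was at 13, 18.8 and 8.14 CPM at HPi and 12.7, 14.5 and 7.85 CPM at LPi in the epidermis and at 0 to 9.44 CPM in the 24 other libraries. Its level was called higher in the epidermis at HPi (log2 2.89, SE 0.65, adjusted p = 0.0016), and the call held in all 38 alternatives. At LPi it was called as well (log2 1.94, SE 0.67, adjusted p = 0.0406). It did not pass without epidermis LPi replicate 1 (log2 1.84, adjusted p = 0.119), LPi replicate 2 (log2 1.84, adjusted p = 0.139) or LPi replicate 3 (log2 2.17, adjusted p = 0.056), as in 9 of 38 alternatives in all. In the pericycle it was at 0.656, 1.02 and 1.45 CPM at HPi and 1.86, 0.122 and 0 CPM at LPi and was called lower at LPi (log2 -2.74, SE 0.95, adjusted p = 0.0373). Without pericycle LPi replicate 2 (log2 -2.11, adjusted p = 0.196) or LPi replicate 3 (log2 -2.51, adjusted p = 0.104) the call was lost, as in 4 of 38 alternatives in all. In the stele its LPi libraries, at 6.64, 3.4 and 4.1 CPM, lay above the HPi libraries, at 0, 2.15 and 2.63 CPM (log2 1.26, SE 1.0, unadjusted p = 0.219, adjusted p = 1).

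CYCA2;3 (AT1G15570), which with a B1 kinase holds back endoreduplication, was at 11.8, 19.4 and 5.65 CPM at HPi and 15.8, 11.2 and 7.46 CPM at LPi in the epidermis. It was called higher there at HPi (log2 2.2, SE 0.62, adjusted p = 0.0117). Once epidermis HPi replicate 2 (log2 1.86, adjusted p = 0.105) was left out it was no longer called. At LPi the log2 difference in the epidermis was 1.72 (adjusted p = 0.0563). In the lateral root cap its LPi libraries lay above its HPi libraries, at 2.29, 2.32 and 0.239 CPM at HPi and 4.75, 6.41 and 5.11 CPM at LPi (log2 1.78, SE 0.93, unadjusted p = 0.0665, adjusted p = 0.784), and in the pericycle below, at 5.21, 2.24 and 2.94 CPM at HPi and 1.996, 1.38 and 2.17 CPM at LPi (log2 -0.96, SE 0.94, unadjusted p = 0.317, adjusted p = 0.743). CYCA2;1 (AT5G25380) was read once in the 3 pericycle LPi libraries and 250 times at HPi, where it was at 0.613, 1.79 and 0.425 CPM. The ratio of pooled CPM was 72.8 (95% counting interval 12.9 to 2885), and 30.1 without pericycle HPi replicate 2, with an unadjusted p of 0.0371 and an adjusted p of 0.362. CYCA2;2 (AT5G11300) was highest in the pericycle, at 4.14, 2.88 and 3.86 CPM at HPi and 0, 0.324 and 2.17 CPM at LPi, without overlap (log2 -2.82, SE 2.12, unadjusted p = 0.193, adjusted p = 0.631). Neither of these was called between cell types.

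Of the A3 cyclins, which act early in S phase, CYCA3;1 (AT5G43080) was high in the lateral root cap at 4.35, 0.453 and 8.12 CPM at HPi and 0.685, 3.88 and 2.09 CPM at LPi. The test called it higher there at HPi (log2 2.53, SE 0.86, adjusted p = 0.0337), where the call was lost without lateral root cap HPi replicate 1 (log2 2.65, adjusted p = 0.0521) or HPi replicate 3 (log2 1.71, adjusted p = 0.268), and in 5 of 37 alternatives in all, and at LPi (log2 2.71, SE 0.87, adjusted p = 0.0261). This call did not hold without lateral root cap LPi replicate 2 (log2 2.15, adjusted p = 0.116) or LPi replicate 3 (log2 2.77, adjusted p = 0.0573), as in 5 of 37 alternatives in all. In the pericycle it was at 2.41, 0.971 and 2.2 CPM at HPi and 2.59, 2.79 and 0 CPM at LPi. At LPi it was called higher there than in the other cell types (log2 2.55, SE 0.85, adjusted p = 0.0312). Leaving out pericycle LPi replicate 1 (log2 2.31, adjusted p = 0.115) or LPi replicate 2 (log2 2.22, adjusted p = 0.13) ended the call, as in 7 of 37 alternatives in all. The stele had no reads of it at LPi and 0, 0.435 and 0.408 CPM at HPi. That empty group is among the others in the LPi calls of the lateral root cap and pericycle, whose log2 differences depend on it. The other 4 cell types were at 56.4-fold the floor of the stele at LPi (adjusted p = 0.00503), a call lost without stele LPi replicate 2 (adjusted p = 0.0675) or replicate 3 (adjusted p = 0.0804). Without pericycle LPi replicate 1 this fold was 49.5. The stele at HPi was at 14.2-fold the floor at LPi (unadjusted p = 0.00303, adjusted p = 1), and at 12.98-fold without stele HPi replicate 2. CYCA3;2 (AT1G47210) was at 1.69, 2.11 and 2.78 CPM at HPi and 9.66, 6.66 and 2.36 CPM at LPi in the epidermis (log2 1.49, SE 0.71, unadjusted p = 0.0437, adjusted p = 1) and at 8.64, 5.04 and 4.92 CPM at HPi and 2.86, 2.47 and 1.08 CPM at LPi in the pericycle, where the libraries did not overlap (log2 -1.41, SE 0.72, unadjusted p = 0.0587, adjusted p = 0.43). CYCA1;1 was highest in epidermis HPi replicate 2 at 5.63 CPM and was called nowhere.

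D cyclins sense hormones and sugars and start the cycle, and they showed opposite patterns. CYCD3;3, a D3 cyclin, was high in vascular cells. It was at 19.5, 29.7 and 26.2 CPM at HPi and 6.64, 27 and 24.4 CPM at LPi in the stele and 20.5, 24.7 and 20.5 CPM at HPi and 14.8, 18 and 6.51 CPM at LPi in the pericycle, while the epidermis, cortex and lateral root cap together ranged from 0.130 to 4.82 CPM. The call in the stele held in all 38 alternatives at HPi (log2 2.68, SE 0.56, adjusted p = 0.00101) and at LPi (log2 2.66, SE 0.57, adjusted p = 0.00174). In the pericycle the call at HPi (log2 2.42, SE 0.56, adjusted p = 0.0027) held in all 38, and that at LPi (log2 1.94, SE 0.58, adjusted p = 0.0155) was lost without pericycle LPi replicate 1 (log2 1.87, adjusted p = 0.0625) or LPi replicate 2 (log2 1.66, adjusted p = 0.116). In the lateral root cap it was called lower at HPi (log2 -2.31, SE 0.78, adjusted p = 0.0322). It did not pass without lateral root cap HPi replicate 2 (log2 -1.92, adjusted p = 0.147) or HPi replicate 3 (log2 -1.76, adjusted p = 0.159), as in 4 of 38 alternatives in all. The pericycle LPi libraries all lay below the HPi libraries (log2 -0.69, SE 0.8, unadjusted p = 0.395, adjusted p = 0.795).

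CYCD3;1 (AT4G34160), which responds to cytokinin, had the reverse order. It was at 4.06, 4.22 and 6.78 CPM at HPi and 11.2, 7.42 and 7.75 CPM at LPi in the epidermis, at 4.35, 0.68 and 0.764 CPM at HPi and 0.245, 7.77 and 0.697 CPM at LPi in the lateral root cap and at 0, 0 and 0.0906 CPM at HPi and 0, 0.0667 and 0.0178 CPM at LPi in the stele. The epidermis was called higher at HPi (log2 4.5, SE 0.84, adjusted p = 0.000239) and at LPi (log2 4.64, SE 0.89, adjusted p = 0.00041), and both calls held in all 38 alternatives. Both log2 differences depend in part on groups with few reads among the others. CYCD3;1 had 2 reads in the stele at HPi, and at LPi 4 there and 2 in the pericycle. In the lateral root cap it was called higher at HPi (log2 2.7, SE 0.89, adjusted p = 0.0269), where the call was lost without lateral root cap HPi replicate 1 (log2 1.47, adjusted p = 0.28), and in 3 of 38 alternatives in all, and at LPi (log2 2.6, SE 0.91, adjusted p = 0.0412). Without lateral root cap LPi replicate 2 (log2 0.05, adjusted p = 0.9999) the call was lost, as in 13 of 38 alternatives in all. The stele was called lower at LPi (log2 -4.84, SE 1.55, adjusted p = 0.0376) from 4 reads. Once stele LPi replicate 1 (log2 -4.79, adjusted p = 0.0511), LPi replicate 2 (log2 -5.83, adjusted p = 0.153) or LPi replicate 3 (log2 -4.24, adjusted p = 0.277) was left out it was no longer called, as in 6 of 38 alternatives in all. LPi libraries lay above HPi libraries in the epidermis (log2 0.8, SE 1.16, unadjusted p = 0.495, adjusted p = 1) and in the cortex, at 0.14, 0.426 and 0.0866 CPM at HPi and 1.26, 3.22 and 1.01 CPM at LPi (log2 3.23, SE 1.33, unadjusted p = 0.0219, adjusted p = 1).

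CYCD2;1, the most abundant of the 39, was at 48.7, 50.1 and 58.4 CPM at HPi and 64, 38.7 and 60.3 CPM at LPi in the cortex, 44.2, 70.6 and 62.6 CPM at HPi and 46.9, 43.9 and 17.4 CPM at LPi in the pericycle and 22.2, 63.3 and 76.3 CPM at HPi and 21.6, 56.5 and 63.8 CPM at LPi in the stele. It was lower in the outer cells, at 16.7, 9.53 and 11.6 CPM at HPi and 14.7, 11.2 and 13.2 CPM at LPi in the epidermis and 18.8, 13.7 and 10.9 CPM at HPi and 13.4, 13.4 and 7.09 CPM at LPi in the lateral root cap, which did not overlap with the cortex. The epidermis was called lower at HPi (log2 -1.65, SE 0.38, adjusted p = 0.00208), a call that held in all 38 alternatives, and at LPi (log2 -1.31, SE 0.37, adjusted p = 0.0125). This call did not hold without epidermis LPi replicate 2 (log2 -1.12, adjusted p = 0.0836), as in 2 of 38 alternatives in all. The lateral root cap was called lower at HPi (log2 -1.41, SE 0.37, adjusted p = 0.00706), where the call was lost without lateral root cap HPi replicate 3 (log2 -1.18, adjusted p = 0.0562), and at LPi (log2 -1.57, SE 0.38, adjusted p = 0.00378), which held in all 38.

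The same gene was called higher in the pericycle at HPi (log2 1.14, SE 0.31, adjusted p = 0.00947), where the call was lost without pericycle HPi replicate 2 (log2 1.0, adjusted p = 0.0848), and in the cortex at LPi (log2 1.26, SE 0.31, adjusted p = 0.00639). Leaving out cortex LPi replicate 1 (log2 1.12, adjusted p = 0.0691) ended the call. In the stele it was called higher at HPi (log2 0.99, SE 0.32, adjusted p = 0.0268), where the call was lost without stele HPi replicate 2 (log2 0.88, adjusted p = 0.181) or HPi replicate 3 (log2 0.67, adjusted p = 0.31), and in 3 of 38 alternatives in all, and at LPi (log2 1.06, SE 0.32, adjusted p = 0.0254). It did not pass without stele LPi replicate 2 (log2 0.95, adjusted p = 0.19) or LPi replicate 3 (log2 0.81, adjusted p = 0.291), as in 6 of 38 alternatives in all. CYCD3;2 kept a like order, with 19.9, 37.3 and 32 CPM at HPi and 23.5, 29.3 and 9.76 CPM at LPi in the pericycle and 8.8, 5.0 and 6.36 CPM at HPi and 8.42, 5.02 and 4.22 CPM at LPi in the epidermis. Its level was called higher in the pericycle at HPi (log2 1.4, SE 0.38, adjusted p = 0.0097), where the call was lost without pericycle HPi replicate 2 (log2 1.22, adjusted p = 0.088), and lower in the epidermis at LPi (log2 -1.37, SE 0.47, adjusted p = 0.0383). Without epidermis LPi replicate 2 (log2 -1.16, adjusted p = 0.19) or LPi replicate 3 (log2 -1.12, adjusted p = 0.174) the call was lost, as in 9 of 38 alternatives in all.

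The other 4 D cyclins were called in no comparison. CYCD1;1 (AT1G70210) was at 1.34, 6.91 and 9.52 CPM at HPi and 3.32, 4.84 and 6.98 CPM at LPi in the stele, and over the group means its r with the mean of the replication genes was 0.87, close to the 0.88 of CYCD3;3. CYCD4;1 (AT5G65420), which has been tied to divisions in the pericycle, was at 0.35, 2.74 and 1.56 CPM at HPi and 1.63, 2.39 and 1.08 CPM at LPi in the pericycle and at 4.7, 10.08 and 8.7 CPM at HPi and 1.66, 5.82 and 6.75 CPM at LPi in the stele. CYCD4;2 (AT5G10440) ranged over 0.507 to 4.42 CPM in the epidermis and 0 to 2.95 CPM elsewhere. CYCD5;1 (AT4G37630) was highest in the cortex at HPi, at 7.7, 6.39 and 8.4 CPM at HPi and 1.89, 5.65 and 6.56 CPM at LPi.

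CDKA;1, the partner of D cyclins and the plant counterpart of the yeast Cdc2 kinase, was read in all 30 libraries and was highest in the vascular cell types. It was at 45.3, 55.6 and 55.3 CPM at HPi and 35.8, 39.3 and 21.7 CPM at LPi in the pericycle and 41, 44.9 and 44.5 CPM at HPi and 16.6, 40.8 and 39.8 CPM at LPi in the stele, against 7.44, 21.5 and 9.88 CPM at HPi and 15.3, 10.48 and 8.24 CPM at LPi in the epidermis and 12.4, 14.1 and 18.8 CPM at HPi and 14.5, 7.77 and 8.6 CPM at LPi in the lateral root cap. In the pericycle it was called higher at HPi (log2 1.3, SE 0.29, adjusted p = 0.00191), which held in all 38 alternatives, and at LPi (log2 0.92, SE 0.3, adjusted p = 0.0273). Once pericycle LPi replicate 1 (log2 0.84, adjusted p = 0.133) or LPi replicate 2 (log2 0.76, adjusted p = 0.189) was left out it was no longer called, as in 7 of 38 alternatives in all. In the stele it was called higher at HPi (log2 0.98, SE 0.3, adjusted p = 0.0211), where the call was lost without stele HPi replicate 2 (log2 0.96, adjusted p = 0.108) or HPi replicate 3 (log2 0.96, adjusted p = 0.0995), and at LPi (log2 0.95, SE 0.3, adjusted p = 0.0344). This call did not hold without stele LPi replicate 2 (log2 0.79, adjusted p = 0.281) or LPi replicate 3 (log2 0.81, adjusted p = 0.262), as in 21 of 38 alternatives in all. LPi libraries lay below HPi libraries in the pericycle (log2 -0.67, SE 0.4, unadjusted p = 0.106, adjusted p = 0.522) and in the stele (log2 -0.38, SE 0.4, unadjusted p = 0.35, adjusted p = 1). In both, the lowest value was in a library with few reads.

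The A-type kinase was called lower in the outer cell types. In the epidermis it was lower at HPi (log2 -1.21, SE 0.35, adjusted p = 0.0126), where the call was lost without epidermis HPi replicate 1 (log2 -0.78, adjusted p = 0.233) or HPi replicate 3 (log2 -0.86, adjusted p = 0.199), and in 3 of 38 alternatives in all, and at LPi (log2 -0.99, SE 0.34, adjusted p = 0.0392). Leaving out epidermis LPi replicate 2 (log2 -0.83, adjusted p = 0.216) or LPi replicate 3 (log2 -0.75, adjusted p = 0.226) ended the call, as in 21 of 38 alternatives in all. In the lateral root cap it was lower at HPi (log2 -0.93, SE 0.34, adjusted p = 0.0454), where the call was lost without lateral root cap HPi replicate 1 (log2 -0.71, adjusted p = 0.205), HPi replicate 2 (log2 -0.78, adjusted p = 0.198) or HPi replicate 3 (log2 -1.07, adjusted p = 0.0749), and in 28 of 38 alternatives in all, and at LPi (log2 -1.15, SE 0.35, adjusted p = 0.0173). It did not pass without lateral root cap LPi replicate 2 (log2 -0.9, adjusted p = 0.134) or LPi replicate 3 (log2 -0.97, adjusted p = 0.125). The cortex lay between, at 19.2, 32.5 and 18.7 CPM at HPi and 20.3, 20.3 and 28.2 CPM at LPi, and was not called.

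KNOLLE (AT1G08560), the syntaxin that fuses vesicles into the cell plate, was called in no cell type. It was at 3.21, 4.61 and 0.614 CPM at HPi and 2.43, 3.71 and 0.687 CPM at LPi in the epidermis. LPi libraries lay above HPi libraries in the cortex, at 0, 1.28 and 0.303 CPM at HPi and 1.64, 4.18 and 1.41 CPM at LPi (log2 2.32, SE 1.41, unadjusted p = 0.111, adjusted p = 1), and in the pericycle, at 1.51, 1.4 and 1.63 CPM at HPi and 2.13, 3.16 and 2.17 CPM at LPi (log2 0.73, SE 1.33, unadjusted p = 0.586, adjusted p = 0.888). In the stele it was at 0, 0.239 and 0.453 CPM at HPi and 3.32, 0.289 and 3.13 CPM at LPi (log2 2.81, SE 1.51, unadjusted p = 0.0735, adjusted p = 1), with overlap. KNOLLE overlaps a gene on the other strand by 464 bases, the longest such overlap among the 39.

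**Figure D5:**
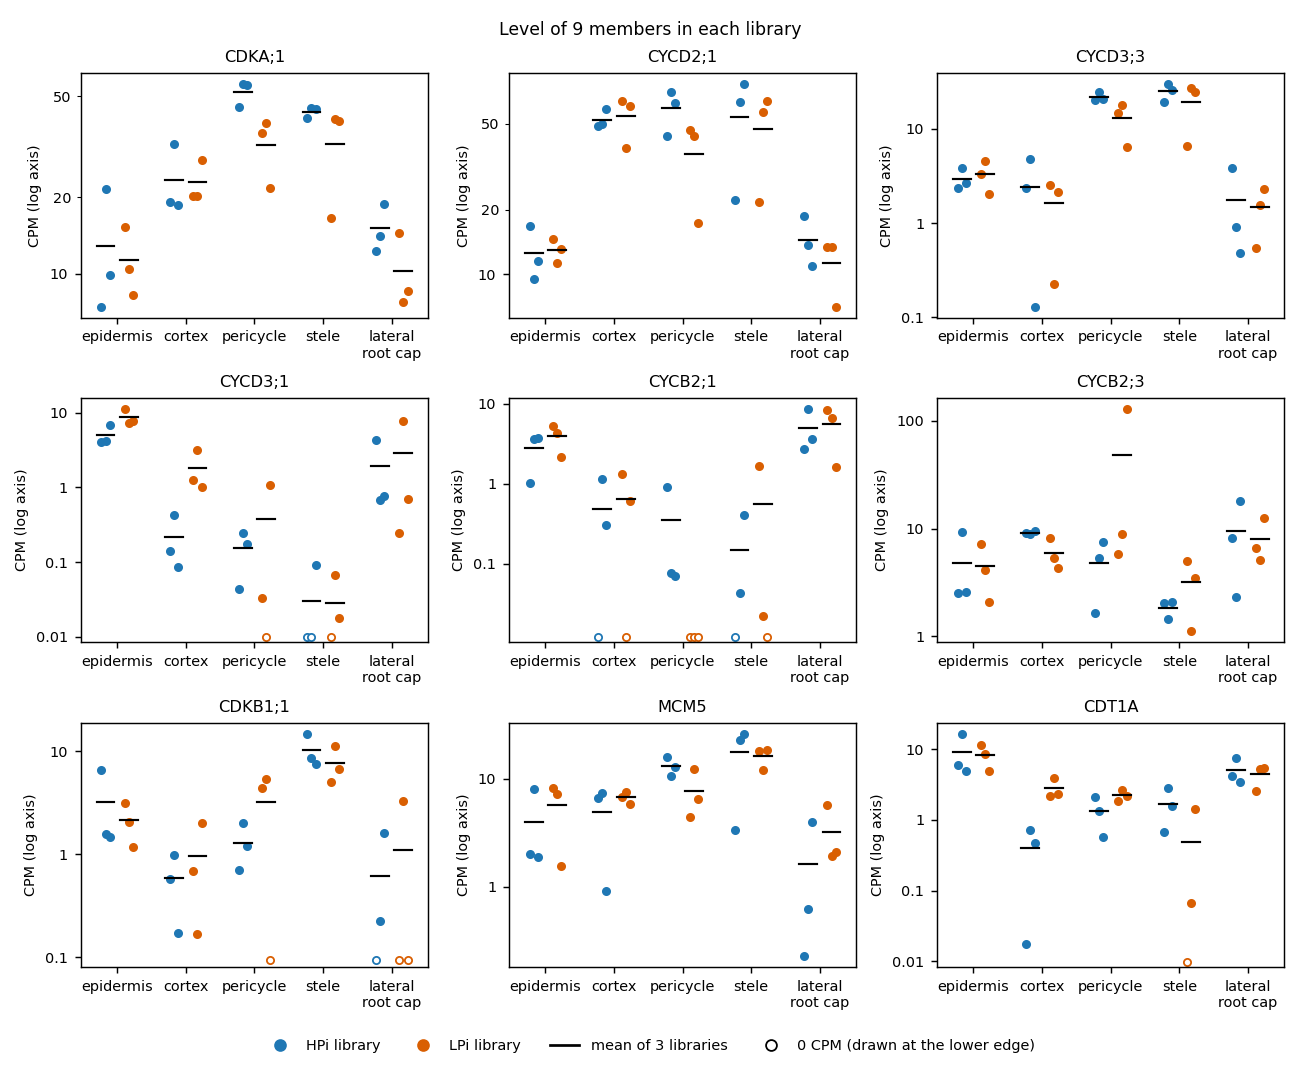
Level in CPM (log axis) of CDKA;1, CYCD2;1, CYCD3;3, CYCD3;1, CYCB2;1, CYCB2;3, CDKB1;1, MCM5 and CDT1A in each library, by cell type, with HPi in blue, LPi in orange, lines at the mean of 3 libraries and open points for libraries without reads. CDKB1;1 and CYCD3;3 are high in the stele, CYCD3;1 and CDT1A in the epidermis, and pericycle LPi replicate 3 stands out for 1 B cyclin at 129 CPM.

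Other genes of the same pathway were taken from 7 lists. The 15 CDK inhibitors, which block cyclin kinases, had 3 to 5 calls in each cell type at HPi among 14 tested, where 11.4% to 23.9% of all genes were called. In the epidermis at HPi 3 were called higher and 2 lower, against 17.8%. SMR3 was at 1.38, 2.44 and 1.74 CPM in the pericycle and 69.1, 44.7 and 76.5 CPM in the lateral root cap at HPi. It was called lower in the pericycle (log2 -4.21, SE 0.51, adjusted p = 1.39e-06) and higher in the lateral root cap (log2 2.16, SE 0.34, adjusted p = 3.71e-05) and epidermis (log2 1.5, SE 0.35, adjusted p = 0.00218). KRP5 had the reverse order, at 1.18, 7.42 and 3.36 CPM in the epidermis and 39, 25.6 and 24.7 CPM in the stele at HPi, and was called lower in the epidermis (log2 -2.16, SE 0.49, adjusted p = 0.00175) and higher in the pericycle (log2 1.47, SE 0.38, adjusted p = 0.00607). KRP6 was called higher in the stele at HPi (log2 1.44, SE 0.32, adjusted p = 0.00156) and at LPi (log2 1.6, SE 0.32, adjusted p = 0.000839). All these calls held in all 38 alternatives.

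Of 27 genes of replication origins and forks, 6 were called higher and 0 lower in the stele at HPi, where 17.7% of all genes were called, with a median log2 difference of 1.2 against -0.03 over all genes. In the lateral root cap at HPi 0 were called higher and 4 lower, against 23.9%, with a median of -0.91 against 0.02. At LPi 1 was called higher in the stele, against 12.4% of all genes, and 2 were called lower in the lateral root cap, against 21.3%. RNR1, the large subunit of ribonucleotide reductase, was at 10.08, 30.1 and 34.4 CPM in the stele at HPi and was called higher there (log2 2.38, SE 0.68, adjusted p = 0.0148), a call lost without stele HPi replicate 2 (adjusted p = 0.0834) or replicate 3 (adjusted p = 0.109). RNR2A, the small subunit, was called lower in the lateral root cap at HPi (log2 -2.03, SE 0.59, adjusted p = 0.0128), which was lost without lateral root cap HPi replicate 2 (adjusted p = 0.083) or replicate 3 (adjusted p = 0.0932). FEN1, a flap nuclease of the lagging strand, was called higher in the pericycle (log2 1.81, SE 0.49, adjusted p = 0.00844) and lower in the lateral root cap (log2 -1.81, SE 0.63, adjusted p = 0.0356). The former call was lost without pericycle HPi replicate 2 (adjusted p = 0.0812) and the latter in 6 of 38 alternatives, among them those without lateral root cap HPi replicate 1 (adjusted p = 0.0747) or 3 (adjusted p = 0.117) and without epidermis HPi replicate 2 (adjusted p = 0.058). RFC1, the large subunit of the clamp loader, was called lower in the epidermis (log2 -1.55, SE 0.36, adjusted p = 0.0022). Among 16 genes of chromatin assembly and S-phase histones, MSI1, a histone-binding subunit of a chromatin assembly factor, was at 35, 51 and 44.8 CPM in the pericycle and 10.53, 5.38 and 4.35 CPM in the lateral root cap at HPi. It was called higher in the pericycle (log2 1.65, SE 0.29, adjusted p = 0.000189) and stele (log2 1.2, SE 0.3, adjusted p = 0.00535) and lower in the lateral root cap (log2 -1.75, SE 0.37, adjusted p = 0.00101).

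The 13 RBR1, E2F and MYB3R regulators had at most 2 calls per cell type at HPi, where 11.4% to 23.9% of all genes were called. Of these DEL2 was called lower in the epidermis (log2 -3.57, SE 0.89, adjusted p = 0.00407). Of 12 genes of the anaphase-promoting complex, CCS52A1, an activator tied to endoreduplication, was called higher in the epidermis (log2 2.15, SE 0.55, adjusted p = 0.00545) and lower in the pericycle (log2 -2.97, SE 0.77, adjusted p = 0.0063). APC8 was called higher in the pericycle (log2 2.06, SE 0.49, adjusted p = 0.00331) and lower in the lateral root cap (log2 -2.33, SE 0.67, adjusted p = 0.0117). The 7 CDK partners and activators had 2 genes called higher in the pericycle and 2 in the stele at HPi, where 20.4% and 17.7% of all genes were called. Of 22 genes of mitosis and cytokinesis, RUK was the 1 list gene called between phosphate levels, where 0.0241% of all genes were called in the lateral root cap. Of its exon sequence 5.33% of 50-base words also occur elsewhere in the genome. In the lateral root cap it was at 7.32, 0.453 and 4.3 CPM at HPi and 0.147, 0 and 0.232 CPM at LPi, without overlap (log2 -4.72, SE 0.89, adjusted p = 0.0492). That call held in 19 of 38 alternatives and was lost without lateral root cap HPi replicate 3 (adjusted p = 0.148) or LPi replicate 1, 2 or 3 (adjusted p = 0.174, 0.102 and 0.115), at log2 differences of -5.1 to -4.37. RUK was called higher in the cortex at HPi (log2 2.12, SE 0.46, adjusted p = 0.00157) and at LPi (log2 3.33, SE 0.47, adjusted p = 7.61e-06).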

How the data were processed

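RNA from FACS-sorted root cells was amplified as full-length cDNA with an ultra low input SMART-Seq v4 kit and made into ThruPLEX libraries, per the labels. The authors deposited raw read counts per gene for the 30 libraries, with no normalization. The submitters' processing notes name CASAVA 1.4, FastQC 0.11.9, MultiQC 1.7, STAR 2.5.3a and HTSeq 1.99.2, and DESeq2 with no version. The reference build, gene models and strand setting are not stated in any source used here. HTSeq's lines for reads without a gene, 4.99% to 12.5% of a library, were left out. Groups and replicate numbers came from the labels, which do not say that replicates were separate cultures, so the spread behind each p-value is that of these samples only and may be technical.

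Tests used edgeR 4.0.16 in R 4.3.3. The filter filterByExpr kept genes (24866 of 32833), libraries were scaled by TMM, each group had its own mean in a fit of all 30 libraries (20 residual degrees of freedom), and 2-sided p-values from the quasi-likelihood F test in its robust form were adjusted by Benjamini-Hochberg over all genes tested. Calls had an adjusted p under 0.05. Log2 CPM used a prior count of 1. A group with no reads of a gene was given a floor of 3 counts over the group. Folds against it use reads pooled over the libraries compared. The floor bounds the empty group only, since reads of the other side are taken as counted. Ratios from 1 to 3 reads carry exact binomial 95% intervals. Intervals and floors cover counting error only, since amplified reads are not independent molecules. Exon lengths and upstream windows came from the RefSeq annotation of TAIR10.1, which may differ from the annotation counted on. The upstream bases of 1 gene are not reported here. The workflow was tested on simulated data.

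The 39 genes, the further lists and the tests were chosen with earlier results of these data known. Every gene of the 39 is named, with each call, each gene whose LPi and HPi libraries did not overlap and up to 4 genes with the smallest p per phosphate comparison. From each further list up to 3 called genes were eligible per comparison, and those given are mainly calls kept under all alternatives, a choice made after their values were seen. Alternatives were RLE size factors, no filter, at least 5 CPM in 3 libraries, DESeq2 1.42.0, voom with sample weights in limma 3.58.1, the replicate number as a block, 1 cell type or 1 phosphate level alone, no 3 shallowest libraries, no replicate 3 epidermis libraries, and each library left out.

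To check whether replicate numbers pair libraries, each library's deviation from its group mean was correlated, over genes, with that of the other phosphate level's library of like number. In the epidermis r was 0.123 to 0.238 and in the stele 0.111 to 0.212, so both passed 0.1 in every pair, by the data alone. In the cortex r was -0.202 to 0.0376, in the pericycle 0.0189 to 0.0613 and in the lateral root cap 0.00292 to 0.107. The LPi library of like number had the highest r for every HPi library in the epidermis and the pericycle. It did not for stele replicate 2, for lateral root cap replicate 3 or for any cortex replicate.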

Additional observations from a re-analysis of the deposited data

Results flagged for a closer look

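CYCA2;3 moved in opposite directions in 2 cell types when LPi was set against HPi, with every LPi library on one side of every HPi library in each. Its log2 difference was -0.96 (SE 0.94) in the pericycle and 1.78 (SE 0.93) in the lateral root cap. Neither passed edgeR's quasi-likelihood test after adjustment, and the joint test of a response that differs between cell types gave an unadjusted p of 0.321 and an adjusted p of 1. The 2 values ranged from -1.2 to -0.57 and from 1.25 to 2.28 over the alternatives. These refits reuse the same counts of a gene picked for its lack of overlap, so the kept signs are no further support. The share of all genes with such opposite patterns is not given here.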

How the results depend on the processing

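Leaving out 1 library at a time gave these counts of the 39 genes called, lowest to highest. For LPi against HPi they were 0 to 1 in the pericycle and 0 to 0 in the other cell types, averaged and joint tests. Between cell types at HPi they were 4 to 8 in the epidermis, 0 to 3 in the cortex, 2 to 6 in the pericycle, 2 to 12 in the stele and 4 to 9 in the lateral root cap. At LPi they were 2 to 11 in the epidermis, 0 to 3 in the cortex, 1 to 8 in the pericycle, 1 to 6 in the stele and 3 to 9 in the lateral root cap. RLE size factors gave 1 for LPi against HPi in the pericycle and 2 in the cortex at HPi. DESeq2 gave 1 for LPi against HPi in the pericycle, 7 in the cortex at HPi, 4 in the cortex at LPi and 10 in the pericycle at LPi. limma voom gave 11 in the cortex, 13 in the pericycle and 20 in the stele at HPi, and 17 in the epidermis, 3 in the cortex, 18 in the stele and 12 in the lateral root cap at LPi. In the cortex at HPi the count was 2 with at least 5 CPM in 3 libraries, 2 when the 3 shallowest libraries were left out and 2 with the 15 HPi libraries alone. Without the nearly identical epidermis libraries it was 5 in the epidermis and 3 in the stele at LPi. The causes were not tested. The fit with the replicate number as a block, which pairs libraries, gave 0 calls in all 7 phosphate comparisons and changed no call. H4 (AT1G07660), at a log2 difference of 2.18 in the pericycle at LPi, reversed to -0.0042 when the 3 shallowest libraries were left out. It lay between -0.068 (without pericycle LPi replicate 3) and 2.68 with 1 library left out. All 59 calls of the 39 genes between cell types kept their direction. Depth limits the 11 genes under 1 CPM per kb most, and in stele LPi replicate 1 and pericycle LPi replicate 3, 1 read is over 1 CPM.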
